A study of Mus musculus with 24 samples.

Results

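*Ciart*, *Bhlhe40*, *Bhlhe41* and *Usp2* are 4 of the 54733 genes listed for mouse liver, taken by gene name and followed here in all 24 libraries. The libraries came from male C57BL/6 mice of 2 genotypes, WT and the ΔRRE mutant (delta-RRE in the labels), and were taken every 4 h from CT2 to CT22, 6 times in all, with n = 2 in each of the 12 groups. ΔRRE mice carried a homozygous deletion, made by CRISPR-Cas9, of both RREs in the 5′ region of *Bmal1* (listed as *Arntl*). WT mice kept these elements, and the labels name no other allele or agent. CT is circadian time in h, projected for mice kept in constant darkness. The study raised 2 lines of ΔRRE mice and worked with the first where it named no other, and the labels give neither the line nor an age. For tissue RNA the study's methods give a range of ages in weeks, and the age behind each library is not stated. Nothing in the labels says that the replicates were separate mice. The study's methods give n = 2 for the livers sequenced and speak of biological replicates for tissue RNA. They do not state that each library was a separate mouse, so p-values measure the spread between these libraries, which may be technical. Poly(A) RNA of whole liver was sequenced, so fewer cells of a type and less RNA per cell cannot be told apart. Each value is an FPKM, a read level scaled to transcript length and library size, and the number of reads behind it is unknown. The data allow 3 questions for each gene: whether it cycled in each genotype, whether the cycle differed between genotypes, and whether the level differed.

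The E-box is the DNA element bound by CLOCK and BMAL1, the activators of the circadian clock, and the PER and CRY proteins switch these activators off once a day. Besides PER and CRY, several proteins that are themselves made from E-box genes hold the activators back. CIART, also called CHRONO, binds BMAL1 and represses its activity. DEC1 and DEC2, the products of *Bhlhe40* and *Bhlhe41*, are basic helix-loop-helix repressors that occupy the E-box itself and can dimerise with each other. USP2, a deubiquitinase, is a strongly rhythmic output of the clock in liver and removes ubiquitin from clock proteins among other substrates. The RRE is the element through which ROR proteins activate and REV-ERB proteins repress *Bmal1*, and the deleted elements lie at *Bmal1* and not at these 4 genes.

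The genes lie on 3 chromosomes of GRCm38 (mm10). *Ciart* (ENSMUSG00000038550) spans chr3:95878503-95882251 on the minus strand, and *Usp2* (ENSMUSG00000032010) chr9:44067021-44095627 on the plus strand. *Bhlhe40* (ENSMUSG00000030103) spans chr6:108660629-108666925 on the plus strand and its paralog *Bhlhe41* (ENSMUSG00000030256) chr6:145858243-145865558 on the minus strand. Promoters of 300 bases, 250 before and 50 after the start, were matched by symbol in RefSeq (GRCm38.p6) for 3 of the 4 genes, all but *Bhlhe40*, and searched on both strands for CACGTG, the canonical E-box. CACGTG reads the same on both strands. It was in 7.15% of all 32851 promoters, and 3 or more copies were in 0.0883% (29 promoters). *Ciart* held 3 copies, which begin at −116, −58 and −44 from the start and are shown because few promoters hold as many. *Bhlhe41* held 1 copy, which begins at −153. The lines give the stretch of the *Ciart* promoter with its copies (chr3:95882253-95882358, minus strand) and the bases around the copy of *Bhlhe41* (its CACGTG at chr6:145865568-145865573, minus strand), 5′ to 3′ with CACGTG in capitals.
Ciart: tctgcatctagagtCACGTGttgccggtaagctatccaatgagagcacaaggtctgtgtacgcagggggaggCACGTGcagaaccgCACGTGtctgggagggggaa
Bhlhe41: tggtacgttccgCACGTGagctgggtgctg

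The *Usp2* entry (chr9:44084670-44084969, plus strand) held no CACGTG. GENCODE lists 9 *Usp2* transcripts, whose starts lie both upstream and downstream of this entry, and the gene's FPKM does not separate transcripts by their start. Neither CACGTT, an E-box variant that differs from CACGTG in its last letter, nor AGGTCA, a form of the RRE core, was in any of the 3 promoters. CACGTT was in 4.68% and AGGTCA in 16.3% of all promoters. The RRE motif given by the study also allows GGGTCA, which was not searched for over all promoters. GGGTCA occurs in the *Usp2* entry, without the T that the motif places before it. A match or its absence describes these letters only.

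*Arntl*, the targeted gene, checked the labels: its fitted 24 h amplitude on the log2 scale was 2.57 ± 0.305 (SE) in WT and 0.29 ± 0.0922 (SE) in ΔRRE. Over 11244 genes that averaged 1 FPKM or more, the replicates of a group correlated with a Pearson r from 0.955 to 0.974. The summed level of 5 hepatocyte markers found (*Alb*, *Apoa1* and others of 6 listed) ranged from 36626 to 51247 FPKM in WT and from 33913 to 47122 FPKM in ΔRRE. *Cpa1*, *Prss2*, *Pnlip* and *Ckm*, markers of pancreas or muscle, were listed at 0 in all libraries of both genotypes. The sum of the 5 pancreas markers ranged from 12.5 to 34.6 FPKM in WT and from 8.42 to 38.3 FPKM in ΔRRE, nearly all of it *Cela1*, which averaged 23.1 and 21.1 FPKM.

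WT CT6 replicate 1 stood apart for the genes described here. On the log2(FPKM + 0.1) scale it was above replicate 2 of its group by 2.91 for *Ciart* and by 1.85 for *Usp2*, and by 0.28 and 0.04 for *Bhlhe40* and *Bhlhe41*. Of 13 other E-box genes, 11 were higher in replicate 1, and the median size of their difference was 0.52, against 0.251 over all genes in this group. Such shifts of the 13 were not confined to this group. None was higher in replicate 1 at CT18 in WT, and their median size was 0.478 at CT2 in ΔRRE. Other lists differed between these 2 libraries too. The summed level of 6 Kupffer cell markers was 94.9 FPKM in replicate 1, the highest of the 12 WT libraries, and 29.1 FPKM in replicate 2. The sum of 7 immediate early genes was 101.5 and 50.7 FPKM, the first again the highest in WT. WT CT2 replicate 2 came close, at 95.5 FPKM against 32.2 FPKM in its replicate 1. Some lists went the other way. At CT6 the pancreas markers summed to 15.5 FPKM in replicate 1 and 34.4 FPKM in replicate 2, and the cholangiocyte markers to 21.3 and 29.0 FPKM. The part of these lists in the result was not tested. The main results that rest on CT6 in WT are given with and without this library, and some also without replicate 2. With n = 2, the group itself does not show which library is unusual.

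**Figure D1:**
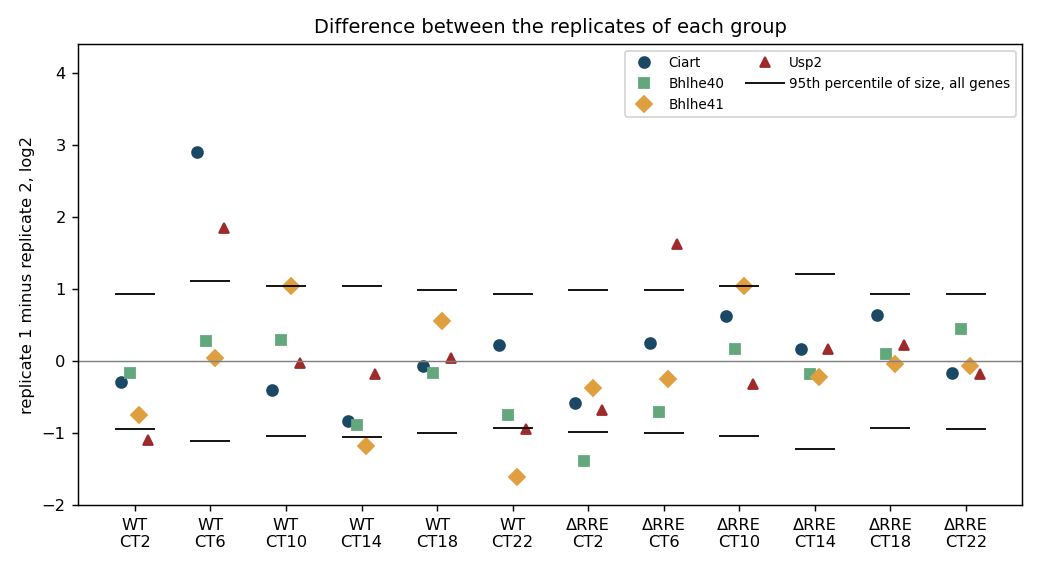
Difference between replicate 1 and replicate 2 on the log2(FPKM + 0.1) scale (vertical axis) in each of the 12 groups (horizontal axis), with a symbol for each gene and black dashes at the 95th percentile of its size over all genes that averaged 1 FPKM or more. The differences of *Ciart* (2.91) and *Usp2* (1.85) at CT6 in WT lie farthest outside the dashes. In all, 10 of the 48 differences do, among them those of *Usp2* at CT6 in ΔRRE (1.63), *Bhlhe41* at CT22 in WT (−1.61) and *Bhlhe40* at CT2 in ΔRRE (−1.38).

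*Ciart*, the repressor with the CACGTG cluster, had its lowest mean at CT2 and its highest at CT10 in both genotypes. In WT the libraries measured 0.141 and 0.193 FPKM at CT2, 5.42 and 0.636 at CT6, 13.4 and 17.7 at CT10, 11.1 and 19.8 at CT14, 2.72 and 2.84 at CT18, and 0.877 and 0.737 at CT22. In ΔRRE they measured 0.0478 and 0.121 FPKM at CT2, 0.427 and 0.344 at CT6, 22.5 and 14.6 at CT10, 14.9 and 13.2 at CT14, 3.15 and 1.99 at CT18, and 0.450 and 0.515 at CT22. The genotypes overlapped at CT10, CT14 and CT18, and all WT libraries were above all ΔRRE libraries at CT2, CT6 and CT22. Such a separation with WT higher was found in 10.9%, 11.8% and 15.4% of the genes tested at these times. The highest time-point mean was 93.1 times the lowest in WT and 219.1 times in ΔRRE. At CT2, where the denominators lie, WT measured 0.167 ± 0.0368 FPKM and ΔRRE 0.0846 ± 0.0521 FPKM (mean ± SD, n = 2).

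*Bhlhe40* was the most abundant of the 4 genes in FPKM, which is per transcript length, and had the flattest cycle. In WT its libraries measured 10.6 and 11.9 FPKM at CT2, 26.0 and 21.4 at CT6, 36.1 and 29.4 at CT10, 48.4 and 89.9 at CT14, 31.8 and 35.7 at CT18, and 20.7 and 34.9 at CT22. In ΔRRE they measured 5.66 and 14.9 FPKM at CT2, 18.7 and 30.6 at CT6, 33.9 and 30.1 at CT10, 38.6 and 43.7 at CT14, 38.2 and 35.8 at CT18, and 33.9 and 24.9 at CT22. Both genotypes were lowest at CT2 and highest at CT14, and the highest WT value was a single library, CT14 replicate 2. The genotypes separated only at CT14, with WT higher (10.9% of the genes tested did so), and at CT18, with ΔRRE higher (24.5%). The ratio of highest to lowest mean was 6.14 in WT and 4.01 in ΔRRE.

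*Bhlhe41*, its paralog, was low throughout, with a mean of 0.576 FPKM over the 24 libraries. In WT its libraries measured 0.0611 and 0.171 FPKM at CT2, 0.844 and 0.816 at CT6, 2.81 and 1.31 at CT10, 0.458 and 1.16 at CT14, 0.357 and 0.211 at CT18, and 0.0964 and 0.500 at CT22. In ΔRRE they measured 0 and 0.0291 FPKM at CT2, 0.343 and 0.425 at CT6, 1.78 and 0.817 at CT10, 0.370 and 0.449 at CT14, 0.178 and 0.185 at CT18, and 0.218 and 0.233 at CT22. The mean was highest at CT10 in both genotypes and lower in ΔRRE than in WT at 6 of 6 time points. All WT libraries were above all ΔRRE libraries at CT2, CT6, CT14 and CT18. Over the 28380 genes above 0 FPKM, WT separated above ΔRRE in 10.4%, 10.1%, 8.55% and 6.41% at these times, and the ΔRRE mean was the lower one at all 6 times in 0.867%. A gene at 0 FPKM in both genotypes at any time cannot count towards this last share. *Gm43909*, listed at a mean of 0.127 FPKM, overlaps exons of *Bhlhe41* on the opposite strand. The library kit keeps strand, but whether the FPKM were computed with it is not given in the sources used here, so reads of the pair may not be told apart.

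*Usp2*, the deubiquitinase gene, had nearly the same level at CT10 and CT14. In WT its libraries measured 0.206 and 0.555 FPKM at CT2, 5.01 and 1.32 at CT6, 19.6 and 20.0 at CT10, 17.9 and 20.2 at CT14, 10.0 and 9.72 at CT18, and 2.64 and 5.16 at CT22. In ΔRRE they measured 0.679 and 1.15 FPKM at CT2, 1.42 and 0.39 at CT6, 14.9 and 18.7 at CT10, 21.2 and 18.9 at CT14, 10.9 and 9.26 at CT18, and 2.79 and 3.17 at CT22. All ΔRRE libraries were above all WT libraries at CT2 (18.6% of the genes tested), and all WT libraries were above at CT10 (15.4%). The ratio of highest to lowest mean was 52.1 in WT, from CT2 to CT10, and 22.2 in ΔRRE, from CT6 to CT14. In the order of the 12 group means, 8 of the 11 neighbouring pairs had overlapping ranges for *Usp2*, as did 5 for *Ciart*, 7 for *Bhlhe40* and 7 for *Bhlhe41*.

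**Figure D2:**
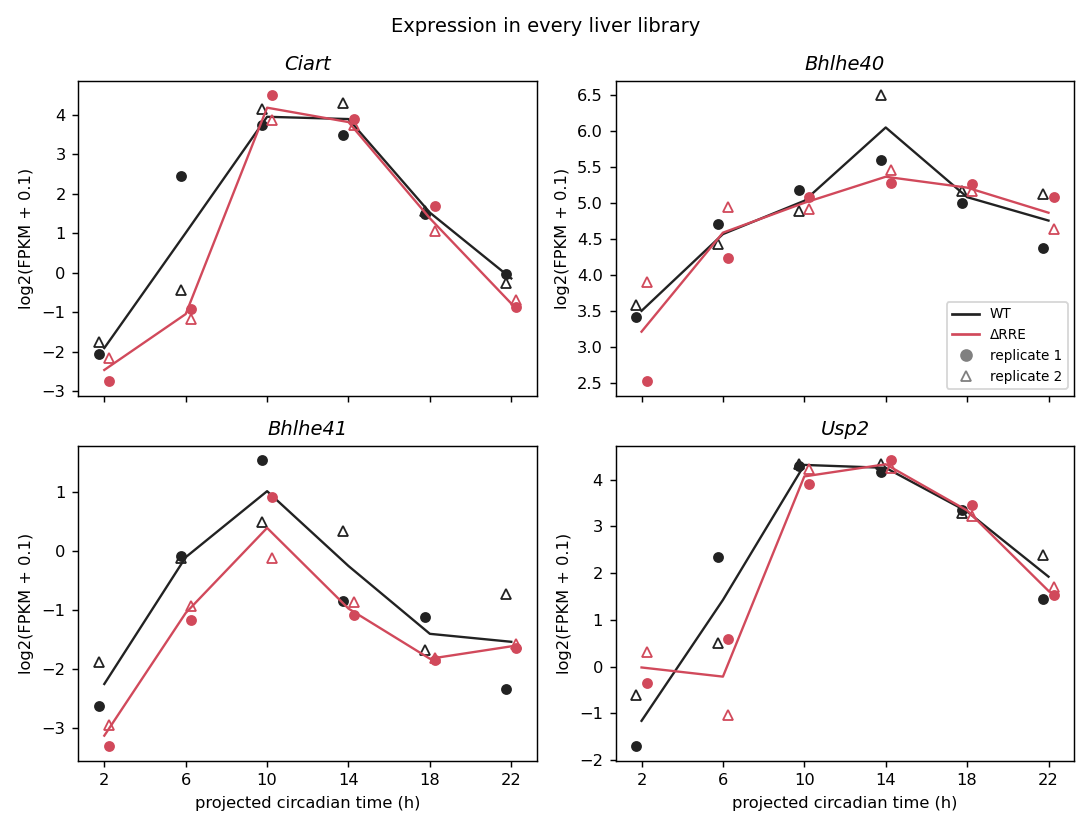
Level of the 4 genes on the log2(FPKM + 0.1) scale (vertical axes, each with its own range) against projected circadian time in h (horizontal axes) for WT (black) and ΔRRE (red), with filled circles for replicate 1, open triangles for replicate 2 and lines through the group means. *Ciart* and *Usp2* climb between CT6 and CT10 in both genotypes, and WT CT6 replicate 1 is high for both of them.

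*Ciart* and *Usp2* cycled in both genotypes, and *Bhlhe40* in WT, when a cosine and a sine of 24 h were fitted to each genotype with limma. The amplitude, the height of the wave above its mean on the log2 scale, was 2.90 ± 0.306 (SE) for *Ciart* in WT (adjusted p = 0.000584, limma) and 3.41 ± 0.290 in ΔRRE (adjusted p = 0.000414). For *Usp2* it was 2.52 ± 0.328 in WT (adjusted p = 0.00172, limma) and 2.47 ± 0.283 in ΔRRE (adjusted p = 0.00169). The tests thus called 3 of 3 tested genes in WT and 2 of 3 in ΔRRE, where 10.3% and 4.57% of the 11244 genes tested passed. By amplitude, *Ciart* ranked 5 in WT and 1 in ΔRRE among these genes, and *Usp2* 13 in both. The lowest *Ciart* means, 0.167 FPKM in WT and 0.0846 FPKM in ΔRRE, are near the 0.1 FPKM added. Its amplitude and rank therefore depend on that choice, and the ranks were not compared by a test. Without WT CT6 replicate 1 the WT amplitudes were 2.97 ± 0.242 for *Ciart*, 2.65 ± 0.312 for *Usp2* and 1.04 ± 0.161 for *Bhlhe40*, each still past the threshold.

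*Bhlhe40* had an amplitude of 0.98 ± 0.159 (SE) in WT (adjusted p = 0.00621, limma) and 0.85 ± 0.203 in ΔRRE (adjusted p = 0.0643). Its ΔRRE value was near the threshold, with adjusted p from 0.0384 to 0.114 when each library was left out in turn. The call in WT was lost without CT14 (adjusted p = 0.0585) or without CT2 (adjusted p = 0.0873), and among all genes above 0 FPKM (adjusted p = 0.0502). *Bhlhe41* was below the filter of 1 FPKM and was tested among the 28380 genes above 0 FPKM, of which 1.83% passed in WT and 0.694% in ΔRRE. There its amplitude was 1.42 ± 0.301 (SE) in WT (adjusted p = 0.0843, limma) and 1.23 ± 0.302 in ΔRRE (adjusted p = 0.188), so no rhythm was called for it in either genotype. Without WT CT22 replicate 2, its WT amplitude was 1.73 with an adjusted p of 0.0336.

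The fitted peaks ran from mid to late subjective day for *Bhlhe41* to the early subjective night for *Bhlhe40*. In WT they were at CT10.5 ± 0.811 for *Bhlhe41*, CT12.6 ± 0.404 for *Ciart*, CT13.8 ± 0.497 for *Usp2* and CT14.3 ± 0.619 for *Bhlhe40* (SE). In ΔRRE they were, for the genes in the same sequence, at CT11.3 ± 0.939, CT13.2 ± 0.325, CT14.5 ± 0.437 and CT14.6 ± 0.908 (SE). The peaks of *Usp2* and *Bhlhe40* differed by less than either SE in both genotypes, so their order is open. No rhythm was called for *Bhlhe41* in either genotype or for *Bhlhe40* in ΔRRE, so these peaks come from fits that did not pass. The fitted peaks of the paralogs *Bhlhe40* and *Bhlhe41* lay several hours apart in both genotypes, a difference that was not tested. The WT peaks without WT CT6 replicate 1 were at CT10.6 ± 0.943 for *Bhlhe41*, CT13.0 ± 0.340 for *Ciart*, CT14.1 ± 0.471 for *Usp2* and CT14.6 ± 0.606 for *Bhlhe40* (SE).

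**Figure D3:**
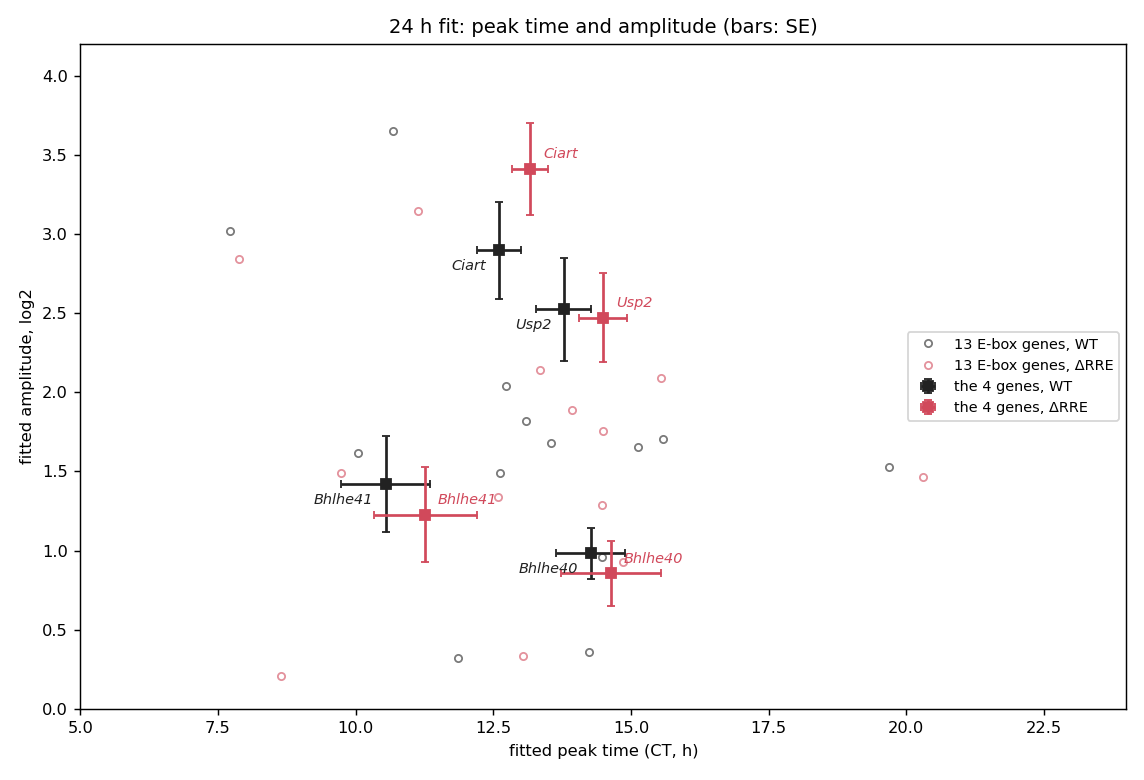
Fitted peak time in h of circadian time (horizontal axis) and fitted amplitude on the log2 scale (vertical axis) of the 24 h wave in WT (black) and ΔRRE (red), with squares and SE bars for the 4 genes and open circles for the 13 other E-box genes. The red squares lie to the right of the black ones for all 4 genes by 0.364 to 0.716 h, and the 95% interval of each shift includes 0. Of the 13 other E-box genes, some peaked later in ΔRRE, such as *Per1* (0.823 h), and some earlier, such as *Noct* (−0.625 h).

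For none of the 4 genes did a difference in rhythm between the genotypes pass the test in 1 model of all 24 libraries. *Arntl* was the only gene of the 11244 tested that passed (0.00889%), and no gene passed in 19 of the 24 fits that left out 1 library, that without WT CT6 replicate 1 included. The call was also lost with the replicate block, with no filter and with 0.01 FPKM added. The amplitude in ΔRRE minus that in WT was 0.51 for *Ciart* (95% interval −0.42 to 1.45), −0.13 for *Bhlhe40* (−0.70 to 0.45), −0.05 for *Usp2* (−1.02 to 0.92) and −0.19 for *Bhlhe41* (−1.09 to 0.70). The adjusted p was 1.0 for each of the first 3 and 0.990 for *Bhlhe41* (limma). The peak in ΔRRE was later by 0.568 h for *Ciart* (95% interval −0.57 to 1.71 h), 0.713 h for *Usp2* (−0.77 to 2.19 h), 0.364 h for *Bhlhe40* (−2.04 to 2.76 h) and 0.716 h for *Bhlhe41* (−1.89 to 3.32 h). Without WT CT6 replicate 1 the shift was 0.135 h for *Ciart* and 0.386 h for *Usp2*, and the difference in amplitude was 0.44 and −0.18. The size of the difference between the waves, on the log2 scale, was 0.69 for *Ciart* and 0.47 for *Usp2* with all libraries. It was 0.40 and 0.30 without WT CT6 replicate 1, and 1.13 and 0.74 without replicate 2. In two-sided exact permutation tests, which exchanged the genotype labels within time points in all 23328 ways, p was 0.296 for *Ciart*, 0.753 for *Bhlhe40*, 0.688 for *Bhlhe41* and 0.575 for *Usp2*, and the smallest p possible was 4.29e-05. The intervals leave room for shifts of more than 1 h in either direction for *Bhlhe40* and *Bhlhe41*.

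The level of *Bhlhe41* in ΔRRE minus that in WT, averaged over the 6 time points, was −0.61 ± 0.211 on the log2(FPKM + 0.1) scale (SE, 95% interval −1.05 to −0.17), which did not pass the adjustment over the 28380 genes (adjusted p = 0.667, limma). Its unadjusted p was 0.00892, and 1.66% of these genes were lower in ΔRRE at an unadjusted p under 0.05. The exact permutation p of this difference, two-sided, was 0.0084, and it ranged from 0.0006 to 0.038 when each library was left out in turn. The difference was −0.59 without WT CT6 replicate 1. On the log2 scale it moved from −0.24 with 1 FPKM added to −0.95 with 0.01 FPKM added.

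For *Ciart* the difference in level was −0.54 ± 0.268 (SE, 95% interval −1.10 to 0.02, adjusted p = 0.571, limma). As the mean of the time-point differences it was −0.78 without WT CT6 replicate 2 and −0.30 without replicate 1. Without replicate 1 the limma value shrank to −0.28 ± 0.137 (95% interval −0.57 to 0.01), so a single library moved it by over 1.5 times. Its exact permutation p was 0.0308 with all libraries, 0.0483 without that library, 0.14 without CT6 and 0.184 with 1 FPKM added, and it ranged from 0.00849 to 0.197 when each library was left out in turn. *Bhlhe40* and *Usp2* gave −0.12 ± 0.148 (95% interval −0.43 to 0.18) and −0.16 ± 0.263 (−0.70 to 0.39), with exact permutation p of 0.46 and 0.627. The value of *Usp2* was 0.04 without WT CT6 replicate 1. Its mean of the time-point differences was −0.004 without that library and −0.31 without replicate 2. No gene of the 11244 passed an adjusted p of 0.05 for level in limma (0%), and 1002 (8.91%) had an unadjusted p under 0.05. The exact tests number 8 over the 4 genes, 2 each, and their p are not adjusted.

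At single time points no difference of the 4 genes passed the adjustment in limma. The lowest unadjusted p was that of *Ciart* at CT6, where ΔRRE minus WT was −2.06 ± 0.599 (SE, unadjusted p = 0.0034, adjusted p = 1.0). *Usp2* at CT6 gave −1.64 ± 0.540 (unadjusted p = 0.00778, adjusted p = 1.0). No gene of the 11244 was lower in ΔRRE at CT6 after adjustment (0%), and 3.28% had an unadjusted p under 0.05 in either direction. Without WT CT6 replicate 1 these became −0.61 ± 0.393 for *Ciart* and −0.72 ± 0.542 for *Usp2*, with the lone WT library taken to vary like the other groups. With that library as the lone one, *Ciart* at CT6 was −3.51 ± 0.388 (adjusted p = 0.00196, limma). At CT2, *Usp2* gave 1.14 ± 0.540 (unadjusted p = 0.0503, adjusted p = 1.0), at mean levels of 0.916 FPKM in ΔRRE and 0.380 FPKM in WT. *Bhlhe40* came closest at CT14, with −0.68 ± 0.375 (adjusted p = 0.999).

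**Figure D4:**
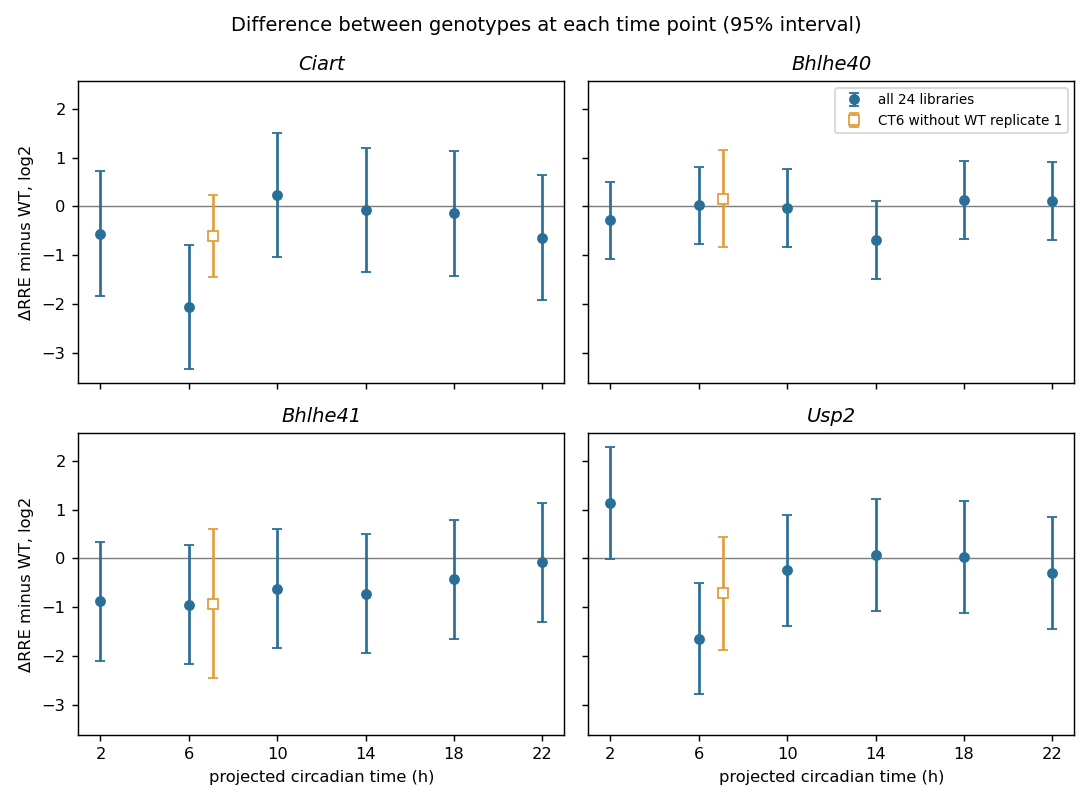
Difference between the genotypes, ΔRRE minus WT on the log2(FPKM + 0.1) scale (vertical axes), against projected circadian time in h (horizontal axes), with 95% intervals from limma in blue and, in orange and set to the right of CT6, the value at CT6 without WT replicate 1. At CT6 the values of *Ciart* and *Usp2* move from −2.06 and −1.64 to −0.61 and −0.72. *Bhlhe41* is below 0 at 6 of 6 time points, and each of its intervals includes 0.

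The rise from CT6 to CT10 was the step of the day that passed the test for *Ciart* and *Usp2*. *Ciart* rose by 2.94 ± 0.599 (SE) on the log2 scale in WT (adjusted p = 0.0295, limma) and by 5.24 ± 0.599 in ΔRRE (adjusted p = 0.000655). *Usp2* rose by 2.89 ± 0.540 in WT (adjusted p = 0.0202, limma) and by 4.28 ± 0.540 in ΔRRE (adjusted p = 0.00137). Of the genes tested, 0.249% rose at this step in WT and 0.454% in ΔRRE. The other 32 of 36 steps of the 3 genes above the filter did not pass with all libraries. The calls in WT were lost without either CT10 library of WT, where adjusted p reached 0.277 for *Ciart* and 0.173 for *Usp2* over all libraries left out in turn, and also without WT CT6 replicate 2. That of *Ciart* in WT was lost with no filter as well. Without WT CT6 replicate 1 the rise in WT was 4.4 ± 0.393 for *Ciart* (adjusted p = 7.57e-05, limma) and 3.81 ± 0.542 for *Usp2* (adjusted p = 0.00309). The falls of *Ciart* from CT14 to CT18, −2.37 ± 0.321 in WT and −2.44 ± 0.321 in ΔRRE, then passed as well (adjusted p = 0.00482 and 0.0172, limma). So did the fall of *Ciart* from CT18 to CT22 in ΔRRE, −2.16 ± 0.321 (adjusted p = 0.0126, limma), and that of *Usp2* from CT22 to CT2 in WT, −3.09 ± 0.442 (adjusted p = 0.0308).

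With all libraries, no difference between the genotypes in these steps passed the adjustment. The step of *Ciart* from CT6 to CT10 was larger in ΔRRE by 2.29 ± 0.848 (SE, unadjusted p = 0.0157, adjusted p = 1.0, limma), and by 0.84 ± 0.507 without WT CT6 replicate 1 (unadjusted p = 0.12). It was 3.74 ± 0.501 without WT CT6 replicate 2 and passed (adjusted p = 0.0107, limma). The step of *Usp2* from CT2 to CT6 was 2.59 ± 0.540 in WT and −0.20 ± 0.540 in ΔRRE, neither of which passed the adjustment. The WT step was 1.66 ± 0.542 without WT CT6 replicate 1 (adjusted p = 0.621, limma) and 3.51 ± 0.541 without replicate 2 (adjusted p = 0.0139), where that of *Ciart*, 4.38 ± 0.388, passed too (adjusted p = 0.000107). The difference between the *Usp2* steps was −2.78 ± 0.763 (unadjusted p = 0.00217, adjusted p = 1.0, limma), and −1.86 ± 0.699 without WT CT6 replicate 1 (unadjusted p = 0.0179). An unadjusted p under 0.05 was found in 2.68% of the genes for the step from CT2 to CT6 and in 4.02% for that from CT6 to CT10.

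The other E-box genes of the clock, a list of 13 with the *Per*, *Cry* and REV-ERB genes and outputs such as *Dbp*, *Tef* and *Wee1*, cycled as well in most cases. Of the 13, 12 passed the rhythm test in WT and 11 in ΔRRE, with a median amplitude of 1.65 and 1.49, where the median over all genes was 0.20 and 0.19. *Dbp*, which encodes a D-box activator, had an amplitude of 3.65 ± 0.348 (SE) in WT and 3.15 ± 0.364 in ΔRRE, and *Per3*, a period gene, 2.04 ± 0.250 and 2.14 ± 0.201. None of the 13 differed in rhythm or in level after adjustment, and at an unadjusted p under 0.05 *Per1* gave 0.40 ± 0.179 and *Per2* −0.50 ± 0.163 for the difference in level on the log2 scale. Their median difference in level was −0.08 and that of all genes 0.04. CACGTG was in the promoters of 3 of the 11 that had one, and none of these held more than 1 copy.

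The 4 RRE genes of the clock list (*Arntl*, *Clock*, *Npas2* and *Nfil3*) all passed the rhythm test in WT and *Npas2* and *Nfil3* in ΔRRE. *Clock* had an amplitude of 0.68 ± 0.131 (SE) in WT and 0.56 ± 0.162 in ΔRRE (adjusted p = 0.124, limma). Of the 4, only *Arntl* differed in rhythm between the genotypes after adjustment. *Npas2*, a partner of BMAL1, peaked at CT1.0 ± 0.495 (SE) in WT and CT1.1 ± 0.342 in ΔRRE, far from the peaks of *Usp2* and *Ciart*. Of 12 known partners and targets of the 4 proteins (for example *Hdac1*, *Mdm2* and *Fasn*), 1 passed the rhythm test in WT and none in ΔRRE. Over all genes tested, 10.3% and 4.57% passed. The 1 was *Ccnd1*, which encodes cyclin D1, with an amplitude of 1.09 ± 0.205 (SE) in WT (adjusted p = 0.0144, limma). In ΔRRE its amplitude was 0.75 ± 0.170 (adjusted p = 0.0543, limma), near the threshold. Its difference in rhythm had an unadjusted p of 0.0184 (limma) and did not pass the adjustment. In level none of the 12 passed the adjustment. *Fasn*, the fatty acid synthase gene, had the lowest value, −0.51 ± 0.206 (adjusted p = 0.475, limma).

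Over the 24 libraries, which share their time points, the profiles most like that of *Ciart* on the log2 scale were those of *Per3* (Pearson r = 0.960), *Tef* (0.952) and *Klf13* (0.938). Those nearest to *Usp2* were *Gm27252* (0.943), *Per1* (0.938) and *Per3* (0.928). *Bhlhe41* was nearest to *Dbp* (0.887) and *Upp2* (0.855), and *Bhlhe40* to *Slc9a3r1* (0.800), *Gm15889* (0.793) and *Per1* (0.787). Among the 4 genes themselves r ran from 0.605 for *Bhlhe41* and *Usp2* to 0.922 for *Ciart* and *Usp2*. *Npas2* ran against *Ciart* with r = −0.877 and against *Usp2* with r = −0.824. These correlations describe likeness of shape and carry no test.

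Markers of other cells and states were summed beside these results. Lymphocyte markers summed to at most 2.96 FPKM in a WT library and 3.03 FPKM in a ΔRRE library, and muscle and fat markers to at most 0.0729 and 0.136 FPKM. Of 7 acute-phase genes, 7 were higher on average in ΔRRE and none passed the adjustment, while 3 had an unadjusted p under 0.05 (limma). Their median difference was 0.94 on the log2 scale, and that of all genes was 0.04. Their sum ranged from 2094 to 4636 FPKM in WT and from 2186 to 9380 FPKM in ΔRRE. The highest was ΔRRE CT14 replicate 1, and replicate 2 of that group had 2597 FPKM. The median level difference of 6 Kupffer cell markers was 0.12 and that of 5 hypoxia genes 0.07, with no call. The part of these in the values of the 4 genes was not tested.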

How the data were processed

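RNA-seq of mouse liver was analysed in 24 libraries, grouped by the genotype and time in their labels. The deposited values are gene-level FPKM, which the authors made with Trimmomatic 0.39, HISAT2 2.1.0 and StringTie 1.3.5 on mm10, as named in the submitters' processing notes. The strand setting is not given in the sources used here. FPKM were analysed as log2(FPKM + 0.1), so fold changes of low genes are understated. Read depth is unknown, and summed FPKM ran from 554169.5 to 624746.3 per library.

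The 4 genes and all gene lists were chosen with earlier results of these data known. The named genes were the 4 members, *Arntl*, examples from the fixed lists of E-box genes, RRE genes and partners, genes overlapping a member, and the 3 genes nearest to each member by Pearson r, of which 1 is not reported here. *Cpa1*, *Prss2*, *Pnlip* and *Ckm* are named as markers at 0, and *Cela1* as the pancreas marker that was not, after their values were seen. Further lists were cell markers, hypoxia, immediate early and acute-phase genes. Limma 3.58.1 in R 4.3.3 was fitted to the 11244 genes with a mean FPKM of 1 or more, with p-values adjusted by Benjamini-Hochberg over all genes and a threshold of 0.05. A cosine and a sine of 24 h were fitted to each genotype and, for the difference in rhythm, to all libraries together. Level was a genotype term beside time, and time points and steps were contrasts of the 12 groups. The study's own rhythm caller, BIO_CYCLE, was not used here. *Bhlhe41* averaged below 1 FPKM and was tested over the 28380 genes above 0 FPKM, an addition made after seeing the data, as were the differences between steps and the alternatives of the exact tests. Exact permutation tests used NumPy 2.4.6 in Python 3.11.15. Code was tested on simulated data. Alternatives were other pseudocounts, filters, scaling by size factors, prior variance, a shared spread, time as a factor, a replicate block, and leaving out each library or time point.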

Additional observations from a re-analysis of the deposited data

Results flagged for a closer look

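For *Bhlhe40* all WT libraries lay above all ΔRRE libraries at CT14 and below them at CT18. The ΔRRE minus WT difference at CT18 minus that at CT14 was 0.82 on the log2 scale, and the test of this difference gave ±0.531 (SE, 95% interval −0.31 to 1.94) and an unadjusted p of 0.144 (adjusted p = 1.0, limma).

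For *Usp2* all ΔRRE libraries lay above all WT libraries at CT2 and below them at CT10. The difference at CT10 minus that at CT2 was −1.39 ± 0.763 on the log2 scale (SE, 95% interval −3.01 to 0.23, unadjusted p = 0.0877, adjusted p = 1.0, limma).

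*Arntl*, the targeted gene, passed the test of a difference in rhythm between the genotypes with all libraries, with an amplitude in ΔRRE minus that in WT of −2.27 ± 0.341 (SE, 95% interval −2.98 to −1.57, adjusted p = 0.0463, limma). No gene passed this test in 19 of the 24 fits that left out 1 library, that without WT CT6 replicate 1 included, nor with the replicate block, with no filter or with 0.01 FPKM added. Its two-sided exact permutation p was 4.29e-05, the smallest these permutations can give.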

How the results depend on the processing

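Of 956 alternative values of the single genes, 908 kept direction and side of the threshold, 21 lost a call, 7 gained one and 20 turned direction, all 20 for values that passed no test. The difference in level of *Usp2* was 0.138 without CT6, in limma and in the exact test, and −0.299 to 0.0377 with each library left out. The difference in amplitude became 0.155 for *Bhlhe40* without CT14 (−0.418 to 0.0248 with each library left out) and 0.195 for *Bhlhe41* with 0.01 FPKM added (−0.51 to 0.00846). For *Usp2* it became 0.0404 with 1 FPKM added, 0.767 without CT2 and 0.0456 without CT18 (−0.26 to 0.29). When each library was left out, 0 to 1 of the 3 genes above the filter passed at a time point. For these 3 genes 0 to 1 difference between steps passed, and 2 to 8 steps passed. *Ciart* gave the single call at CT6 and that for the step from CT6 to CT10, both without WT CT6 replicate 2. The 8 steps passed without either CT6 library of WT, and the 2 without either CT10 library of WT. The exact test of level gave an unadjusted p under 0.05 for 2 genes, for 1 with 1 FPKM added or without CT2, CT6 or CT22, and for 1 to 2 with each library left out. The cause was not tested. Deviations of same-numbered libraries correlated with r from −0.138 to 0.305 over 66 pairs of groups (median 0.0669, over 0.1 in 20), not over 0.1 in every pair, so the numbers were not taken to pair samples. With the replicate block the 4 steps of *Ciart* and *Usp2* still passed, with adjusted p from 0.00113 to 0.0307 in limma. Over all genes, rhythm in WT, all genes, gave 1157 calls, 519 with no filter, 361 with time as a factor and 524 to 731 without 1 time point. For rhythm in dRRE, all genes, the calls were 514, 197 with no filter, 957 with a shared spread and 142 without CT14. For steps between time points, all genes, there were 501 calls and 752 with the block, and for difference at each time point, all genes, 7, 74 with no filter and 3 at a mean of 5 FPKM or more. For difference in rhythm, all genes, the 1 call, *Arntl*, was lost (0 calls) with no filter, at a mean of 5 FPKM or more, with 0.01 FPKM added, with a prior without a trend, with the block, without CT2, CT6, CT18 or CT22, and in 19 of the 24 fits without 1 library. With each library left out the counts over all genes ranged from 740 to 1157 for rhythm in WT (lowest without WT CT10 replicate 2), from 298 upwards for rhythm in ΔRRE (without ΔRRE CT14 replicate 1), 235 to 601 for steps (without ΔRRE CT10 replicate 1) and 6 to 27 for time points (highest without ΔRRE CT14 replicate 2). Read depth is unknown, so the precision of low values such as those of *Bhlhe41* could not be given.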
